A study of Mus musculus with 15 samples.

Results

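Semaphorins are secreted or membrane-bound guidance ligands, plexins are their receptors, and neuropilins are co-receptors that plexins need to bind most secreted semaphorins. The group described here is a list of 31 mouse genes chosen by name: 20 semaphorins, 9 plexins and 2 neuropilins, out of 36528 genes in the deposited files. All 31 were present in the files, and 28 had enough reads to be tested. Sema4f, Sema5b and Plxnb3 did not, with no more than 0.65 CPM (read counts relative to the library total, scaled between libraries) in any library.

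The samples were sorted tumour cells from mouse skin basal cell carcinoma, in 15 polyA RNA libraries: 3 after 14 days of vismodegib, 8 after 6 days and 4 controls. Vismodegib inhibits SMO, the transducer of Hedgehog signalling. All groups carried K14Cre-ER, an inducible Cre under the keratin 14 promoter of basal keratinocytes, with Ptch1fl/fl, p53fl/fl and Lgr5GFP. Both floxed genes are tumour suppressors, so the controls, whose mice the series' design text calls untreated, carried the tumour genotype too. The labels give no age, strain background or sort gate and do not say whether libraries come from separate animals, so the p-values measure only the spread between these libraries.

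Total counts ran from 27336935 to 256569828 per library, and a floor of 3 counts was at most 0.110 CPM, which covers counting error only. The submitters' sample identifiers fall into 3 runs of numbers, called ranges A, B and C here. Controls 1, 2 and 3 belong to range A with 5 of the 6-day libraries (replicates 1, 3, 4, 6, 8). Control 4 belongs to range B with the other 6-day libraries (replicates 2, 5, 7), and the 14-day libraries make up range C. What the ranges stand for is not stated, range B was sequenced at 93183564 counts or more against at most 38657170 in range A, and range C and the 14-day group cannot be told apart. Keratinocyte markers summed to 31794 to 44323 CPM at 14 days, 30447 to 42952 CPM at 6 days and 21524 to 35809 CPM in controls, against at most 5.75 CPM for 7 endothelial markers and 33.4 CPM for 7 fibroblast markers in any library. Other lists reached more: Langerhans cell markers up to 123 CPM (control 3), and melanocyte or Schwann cell markers from 29.3 CPM (control 2) to 566 CPM (6-day replicate 2). The Hedgehog target transcripts Ptch1, Hhip and Foxe1 fell at 14 days against control (adjusted p from 0.0360 to 0.0454 in edgeR's quasi-likelihood test), Gli1 did not pass (0.0848), and Hhip fell at 6 days (adjusted p = 0.0362), each of these calls being lost when certain single libraries were left out (4 to 11 of 15 omissions).

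As background, class 3 semaphorins are secreted. Most signal through a neuropilin joined to a class A plexin, while SEMA3E binds plexin D1 directly. Classes 4 to 7 are anchored in the membrane, and several class 4 ligands bind class B plexins, which can associate with the receptor tyrosine kinases MET, MST1R and ERBB2. In skin, semaphorins are known for guiding sensory nerves and vessels and for signalling between epithelial cells. Bulk RNA cannot separate fewer cells of a type from less RNA per cell.

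At 14 days against control, 5 members were called. The secreted ligands Sema3c and Sema3d and the receptor Plxnb2 rose, and both neuropilins, Nrp1 and Nrp2, fell. At 6 days Sema3d rose, and Sema3b and Nrp1 fell. Sema3c, Sema3d, Sema3f and Plxnb2 were higher at 14 than at 6 days. No plexin of class A, C or D and no semaphorin of class 4, 5, 6 or 7 was called in any of the 3 comparisons.

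At an adjusted p under 0.05 in edgeR's quasi-likelihood test over 18751 genes, 5 of 28 tested members were called at 14 days against control, beside 6.6% of all genes. At 6 days against control it was 3 of 28, beside 1.26% of all genes, and at 14 against 6 days it was 4 of 28, beside 3.89%. The median log2 fold change of the 28 members was -0.01 at 14 days against control, 0.17 at 6 days against control and 0.07 at 14 against 6 days, beside -0.02, 0.03 and -0.06 over all tested genes. The comparisons share libraries, so their counts are not independent. Without 14-day replicate 1, 1 member was called at 14 days against control and 0 at 14 against 6 days, and without 14-day replicate 3 these were 3 and 0. Without control 2, 3 members were called at 14 days and 1 at 6 days against control, and at 6 days it was also 1 without control 3 or without 6-day replicate 2, 3 or 6. At 14 against 6 days, 2 members were called when any 1 of the 8 6-day libraries was left out.

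With range B as a covariate, 13 of 28 members were called at 14 days against control, beside 17.0% of all genes, 10 of them higher and 3 lower. The 8 added to the first 5 were Sema3b (lower) and Sema3e, Sema3f, Sema4b, Sema4c, Plxna2, Plxna3 and Plxnb1 (higher). At 6 days against control it was 4, beside 4.62% of all genes, with Plxna3 added, and at 14 against 6 days 5, beside 10.9%, with Sema4b added. The covariate marks range B only and no 14-day library is in range A or B, so it cannot separate 14 days from range C.

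**Figure D1:**
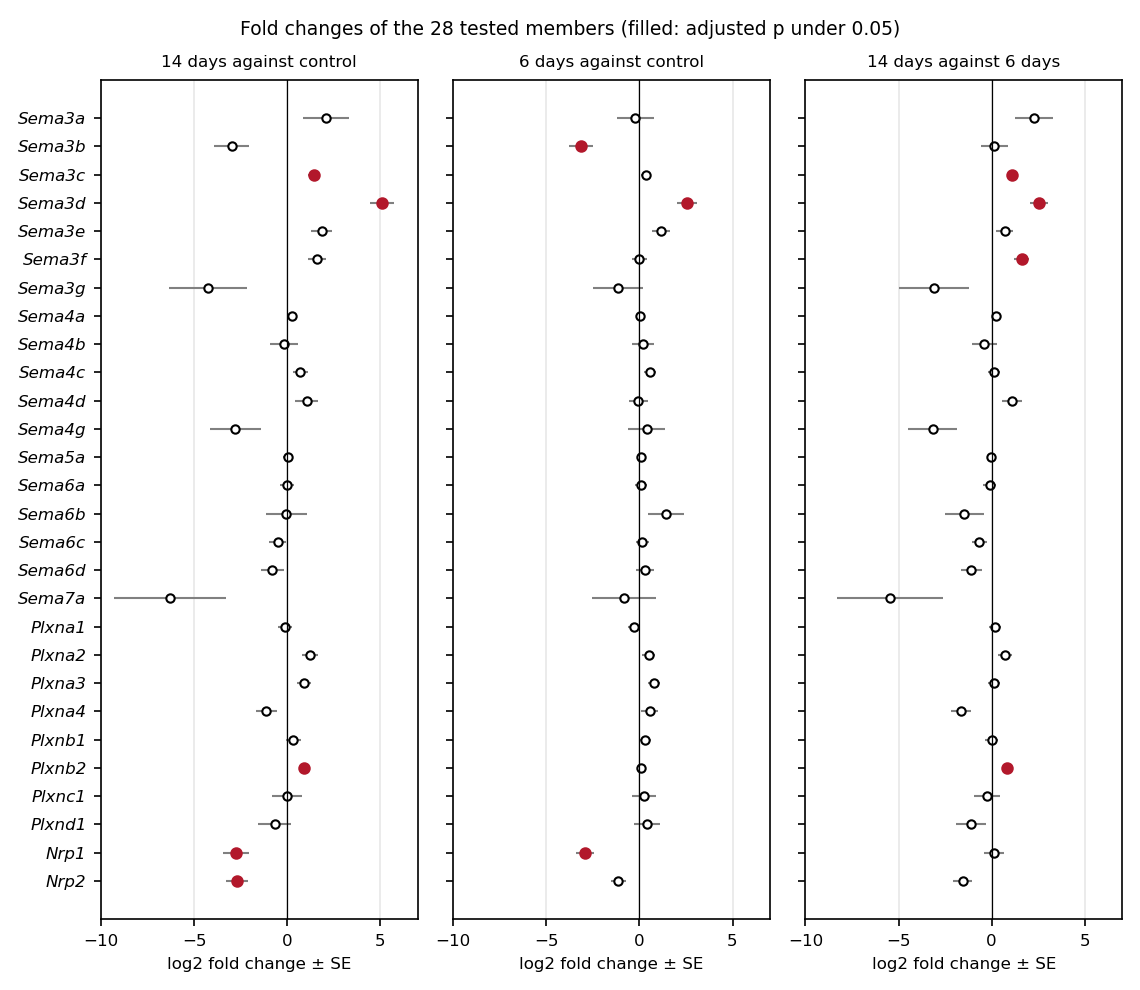
Log2 fold change with its standard error (horizontal axis) for the 28 tested members (vertical axis) in the 3 comparisons. Filled points passed an adjusted p under 0.05: 5 at 14 days against control, 3 at 6 days against control and 4 at 14 against 6 days. Sema7a and Sema3g have wide errors, and most of their libraries held few or no reads. Sema7a also reached 6.91 CPM in 6-day replicate 7 and 7.18 CPM in control 4, both of range B.

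Per unit of transcript length, the ligand present at the highest level in 14-day libraries was Sema3e, with a median of 76.8 RPKM (reads per kilobase of gene relative to library depth, as deposited), followed by Sema3c at 39.5 RPKM and Sema4a at 37.1 RPKM. In controls the order was Sema4a at 30.8 RPKM, Sema3c at 17.8 RPKM and Sema3e at 16.4 RPKM. The summed RPKM of the 7 class 3 ligands was 131.9 to 145.7 at 14 days, 41.0 to 123.7 at 6 days and 36.9 to 66.4 in controls. On this scale the 14-day libraries lay above all others. In CPM the sums were 843.5 to 1106 at 14 days, 287 to 941 at 6 days and 230 to 464 in controls. There the 14-day libraries lay above every control but overlapped with 6 days, as replicate 1 at 14 days lay below 6-day replicate 8. The 2 neuropilins summed to 1.19 to 4.96 RPKM at 14 days, 4.70 to 19.9 RPKM at 6 days and 14.4 to 33.4 RPKM in controls, so the 14-day libraries lay below every control. Plxnb2 was the receptor at the highest level in controls (median 32.9 RPKM), ahead of Plxnb1 (21.1 RPKM) and Nrp2 (20.0 RPKM). Plxnd1, which encodes the SEMA3E receptor, had medians of 0.202 RPKM at 14 days, 0.249 RPKM at 6 days and 0.229 RPKM in controls.

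**Figure D2:**
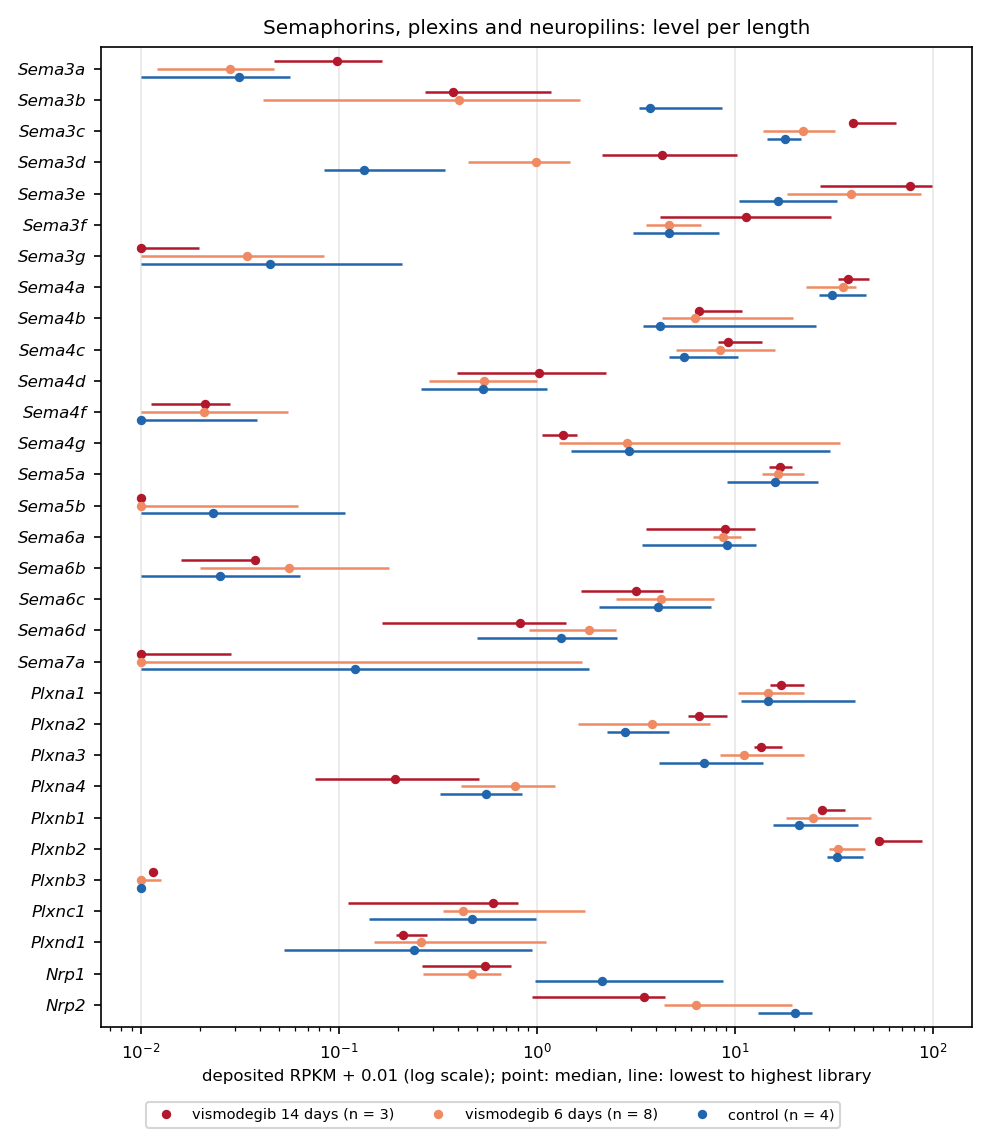
Deposited RPKM plus 0.01 on a log axis for the 31 members, with the median (point) and the lowest to highest library (line) at 14 days (n = 3), 6 days (n = 8) and in controls (n = 4). The group intervals of Sema3d do not touch each other, and those of Nrp1 and Sema3b in both vismodegib groups lie below the controls.

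Sema3d, a secreted ligand known in mouse for patterning the veins of the lung, lies at chr5:12383161-12588953 (GRCm38). It had 81.1, 17.1 and 34.2 CPM in 14-day replicates 1 to 3, from 3.57 to 11.6 CPM with a median of 7.77 CPM in the 6-day libraries, and 2.60, 0.594, 1.12 and 0.817 CPM in controls 1 to 4. The 3 groups did not overlap: every 14-day library was above every 6-day library, which was above every control. Sema3d rose 34.4-fold at 14 days against control (log2 5.11 ± 0.65 SE, adjusted p = 0.0017 in edgeR's test) and 5.97-fold at 6 days against control (log2 2.58 ± 0.54 SE, adjusted p = 0.0328), and was 5.77-fold higher at 14 than at 6 days (log2 2.53 ± 0.47 SE, adjusted p = 0.0144). The 14-day call held whichever library was left out, with folds from 20.2 (without 14-day replicate 1) to 52.6 (without control 1). The 6-day call was lost without control 2, 3 or 4 or 6-day replicate 1, 2, 3 or 6 (adjusted p up to 0.114), although the fold was similar within ranges (log2 2.56 in A and 2.90 in B, which has a single control). The call between 14 and 6 days was lost without 14-day replicate 1 (3.38-fold, adjusted p = 0.236) or 3. The bases just before the annotated start of Sema3d, the member with the largest called change, are printed from RefSeq (GRCm38.p6, plus strand, chr5:12382916-12383160), and hold none of the 4 promoter motifs searched for.
Sema3d: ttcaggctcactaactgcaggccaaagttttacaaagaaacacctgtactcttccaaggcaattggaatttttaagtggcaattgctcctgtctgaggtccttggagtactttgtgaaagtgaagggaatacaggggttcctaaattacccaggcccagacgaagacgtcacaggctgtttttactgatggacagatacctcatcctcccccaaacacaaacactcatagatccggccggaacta

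Sema3c encodes a secreted ligand of neuropilin and class A or D plexin complexes, and lies at chr5:17574816-17730268. It had 386, 237 and 227 CPM in 14-day replicates 1 to 3, from 84.0 to 192 CPM with a median of 132 CPM at 6 days, and 107, 128, 99.8 and 84.5 CPM in controls 1 to 4. All 14-day libraries exceeded all others, while 6-day libraries and controls overlapped. Sema3c rose 2.71-fold at 14 days against control (log2 1.44 ± 0.31 SE, adjusted p = 0.0147 in edgeR's test) and was 2.15-fold higher at 14 than at 6 days (log2 1.11 ± 0.26 SE, adjusted p = 0.0357). At 6 days against control the log2 difference was 0.33 (adjusted p = 0.711). Without 14-day replicate 1 neither call held (adjusted p = 0.0864 against control and 0.354 against 6 days). The call against 6 days was also lost without 14-day replicate 3 or 6-day replicate 2, 5, 6 or 7.

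Sema3e, the ligand of plexin D1, had 220, 827 and 633 CPM in 14-day replicates 1 to 3, from 155 to 724 CPM with a median of 318 CPM at 6 days, and 88.2, 269.6, 176 and 84.5 CPM in controls 1 to 4. Values were mostly higher in the vismodegib groups, but groups overlapped. The log2 difference was 1.86 ± 0.56 SE at 14 days against control (adjusted p = 0.0604 in edgeR's test) and 1.17 ± 0.47 SE at 6 days (adjusted p = 0.297), neither called. With range B as a covariate Sema3e was called at 14 days (log2 1.65, adjusted p = 0.0268) and not at 6 days (1.28, 0.0831).

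Sema3f, a secreted ligand that binds neuropilin 2, had 153, 21.3 and 57.4 CPM in 14-day replicates 1 to 3, from 17.9 to 34.0 CPM with a median of 23.5 CPM at 6 days, and 23.6, 15.3, 22.2 and 40.7 CPM in controls 1 to 4. Replicate 1 at 14 days stood high, and replicate 2 lay within both other groups. Sema3f was 3.04-fold higher at 14 than at 6 days (log2 1.60 ± 0.41 SE, adjusted p = 0.0449 in edgeR's test), a call kept in 4 of 15 omissions. It was kept only without control 1, 2 or 4 or 14-day replicate 2. Without 14-day replicate 1 the fold was 1.56 (adjusted p = 0.558). Against control it was not called at 14 days (log2 1.60, adjusted p = 0.0665).

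Sema3b, known in human as a candidate tumour suppressor, had 2.12, 1.54 and 6.77 CPM in 14-day replicates 1 to 3, from 0.18 to 9.70 CPM with a median of 2.30 CPM at 6 days, and 20.2, 49.6, 21.8 and 18.5 CPM in controls 1 to 4. Every vismodegib library was below every control. Sema3b fell 8.76-fold at 6 days against control (log2 -3.13 ± 0.65 SE, adjusted p = 0.0319 in edgeR's test), with log2 differences of -3.85 in range A and -1.96 in range B. This call was lost without control 2 or 3 or 6-day replicate 2, 3, 4, 5, 6 or 8 (adjusted p up to 0.109). At 14 days against control the log2 difference was -2.99 ± 0.93 SE and did not pass (adjusted p = 0.0666), though it did with range B as a covariate (adjusted p = 0.0382). Sema3a reached at most 2.03 CPM and Sema3g at most 1.10 CPM, and neither was called.

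The 4 class 3 genes Sema3a, Sema3c, Sema3d and Sema3e lie in a row on chromosome 5, and 2 lie together on chromosome 9, a layout looked at after the values were known. Sema3d, Sema3a, Sema3e and Sema3c span 5.35 Mb (chr5:12383161-17730268), with a gap of 3318.1 kb between Sema3e and Sema3c. Of 22 protein-coding genes in the whole span 5 were tested: these 4 and Pclo, which lies in that gap. The change of Pclo is not given here. Sema3b, lower at 6 days against control, and Sema3f, higher at 14 than at 6 days, are 72.3 kb apart on chromosome 9.

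**Figure D3:**
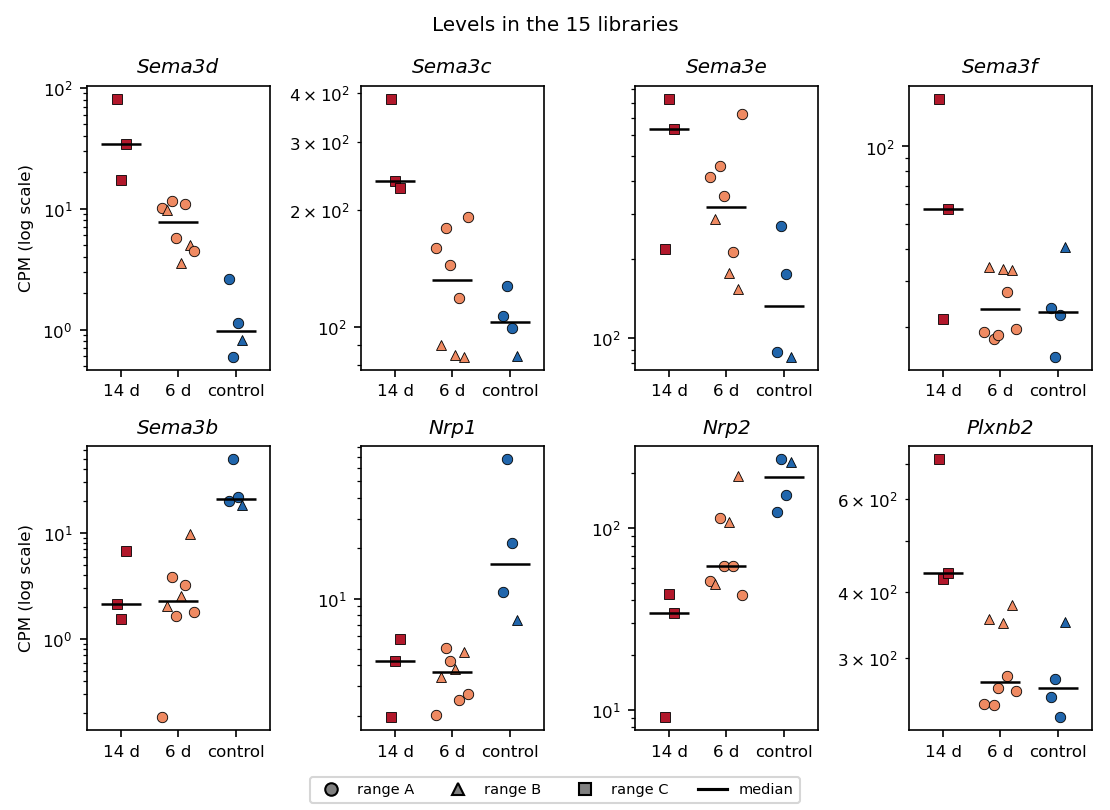
Level in CPM on a log axis in each of the 15 libraries for the 8 members Sema3d, Sema3c, Sema3e, Sema3f, Sema3b, Nrp1, Nrp2 and Plxnb2, with 14 days left, 6 days in the middle and controls right. Marker shape gives the identifier range and the line the group median. The Sema3d groups step down from 14 days to control without overlap, Nrp1 and Sema3b are below all controls in every vismodegib library, and 14-day replicate 1 is the highest library for Sema3c, Sema3d, Sema3f and Plxnb2.

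Nrp1 encodes a co-receptor of class 3 semaphorins and of VEGF-A, and lies on chromosome 8. It had 1.96, 4.25 and 5.72 CPM in 14-day replicates 1 to 3, from 2.02 to 5.10 CPM with a median of 3.62 CPM at 6 days, and 10.9, 67.8, 21.5 and 7.41 CPM in controls 1 to 4. All 11 vismodegib libraries were below all 4 controls, which spread widely. Nrp1 fell 7.50-fold at 6 days against control (log2 -2.91 ± 0.48 SE, adjusted p = 0.00979 in edgeR's test) and 6.76-fold at 14 days (log2 -2.76 ± 0.68 SE, adjusted p = 0.0262), and 14 and 6 days differed by a log2 of 0.15 (adjusted p = 0.897). The 6-day call held in all 15 omissions. Without control 2, the highest library, the fold at 6 days was 3.77 (adjusted p = 0.0494) and at 14 days 3.33 (adjusted p = 0.0709). The 14-day call was also lost without any 1 of the 3 14-day libraries (adjusted p up to 0.129). Within range A the log2 difference at 6 days was -3.34, against -0.89 (not called) in range B, where 1 control stands alone.

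Nrp2, the co-receptor of SEMA3C and SEMA3F and of VEGF-C, was the neuropilin at the higher RPKM. It had 9.11, 43.5 and 34.0 CPM in 14-day replicates 1 to 3, from 42.9 to 192.5 CPM with a median of 61.7 CPM at 6 days, and 123, 239, 152 and 229.6 CPM in controls 1 to 4. The 14-day libraries were below every control, and 7 of 8 6-day libraries were too. The exception was 6-day replicate 7, which also had the highest Sema3b of its group. It had the highest Gli1 too, at 1292 CPM in a 6-day group that began at 77.5 CPM, beside 239 to 1801 CPM in controls. Whether these values are linked was not tested. Nrp2 fell 6.44-fold at 14 days against control (log2 -2.69 ± 0.60 SE, adjusted p = 0.0168 in edgeR's test), and at 6 days the log2 difference of -1.13 ± 0.42 SE was not called (adjusted p = 0.243). The 14-day call was lost without 14-day replicate 1 (4.76-fold) or 3, with an adjusted p of up to 0.0707. Its promoter stretch is printed as that of a called member that fell and holds 1 of the motifs searched for (RefSeq, GRCm38.p6, plus strand, chr1:62703067-62703284), with the 6-letter LEF/TCF core in capitals, 146 bases before the start.
Nrp2: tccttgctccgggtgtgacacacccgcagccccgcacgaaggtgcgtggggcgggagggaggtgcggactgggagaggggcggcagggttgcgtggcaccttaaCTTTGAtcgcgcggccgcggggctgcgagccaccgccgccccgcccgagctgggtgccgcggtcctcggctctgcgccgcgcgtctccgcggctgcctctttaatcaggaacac

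Endothelial cells and fibroblasts also express neuropilins, so their markers were set beside these values. The 7 endothelial markers summed to 2.03 to 2.66 CPM at 14 days, 0.858 to 5.11 CPM at 6 days and 3.87 to 5.75 CPM in controls, below every control at 14 days, and none of the 3 tested was called. Cdh5, a defining endothelial gene, was at 0 in 1 of 3 libraries at 14 days, in 4 of 8 at 6 days and in 3 of 4 controls. The other endothelial markers differed in this. Of the 4 controls, Emcn was at 0 in 4, Cldn5 in 3, Tie1 in 2, Esam in 1, and Pecam1 and Tek in 0. Depth also differed, with at most 38657170 counts in range A and at least 119045864 in the 14-day libraries, and its part in these zeros was not tested. The 7 fibroblast markers summed to 5.56 to 9.15 CPM at 14 days, 4.76 to 24.4 CPM at 6 days and 13.5 to 33.4 CPM in controls, again below every control at 14 days, and of the 6 tested Col6a3 fell at 14 days. Both sums thus moved with the neuropilins at 14 days against control, and the part of these cells in the neuropilin values was not tested. The 7 myeloid markers summed to 17.8 to 27.7 CPM at 14 days, 1.60 to 9.81 CPM at 6 days and 4.04 to 14.2 CPM in controls, highest in the 14-day libraries, and Adgre1 and Itgam rose at 14 days against control. Summed markers of Langerhans cells, T cells and melanocytes or Schwann cells overlapped between all groups except that Langerhans cell markers at 14 days (35.2 to 106 CPM) were above all 6-day libraries (20.6 to 30.8 CPM), beside 14.9 to 123 CPM in controls. Their part in the 14-day results was not tested.

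Plxnb2, the receptor of class 4 semaphorins and of angiogenin, had 714, 422 and 434 CPM in 14-day replicates 1 to 3, from 244 to 378 CPM with a median of 270.5 CPM at 6 days, and 253, 273, 232 and 351 CPM in controls 1 to 4. The 14-day libraries were above all others. Plxnb2 rose 1.89-fold at 14 days against control (log2 0.92 ± 0.23 SE, adjusted p = 0.0293 in edgeR's test) and was 1.77-fold higher at 14 than at 6 days (log2 0.82 ± 0.20 SE, adjusted p = 0.0374). At 6 days against control the log2 difference was 0.10 (adjusted p = 0.932). The 14-day call against control was lost without 14-day replicate 1 (1.56-fold, adjusted p = 0.176) or control 1, 2 or 3. Against 6 days it was lost without 14-day replicate 1 or 3 or 6-day replicate 1, 3, 4 or 8 (adjusted p up to 0.393).

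Plxnb1, the receptor of SEMA4D, had 451, 352 and 344 CPM in 14-day replicates 1 to 3, from 227 to 624 CPM with a median of 316 CPM at 6 days, and 190.2, 264, 263 and 513 CPM in controls 1 to 4. Range B held the 4 highest libraries, and the groups overlapped. Plxnb1 was not called (log2 0.32 at 14 days against control, adjusted p = 0.688 in edgeR's test), but was with range B as a covariate (log2 0.67, adjusted p = 0.0235).

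Of the class A plexins, which serve as signalling partners of neuropilins, Plxna2 had 87.2, 122 and 76.6 CPM in 14-day replicates 1 to 3, from 21.3 to 101 CPM with a median of 50.9 CPM at 6 days, and 28.9, 42.9, 30.6 and 60.1 CPM in controls 1 to 4. All 14-day libraries were above all controls, yet the log2 difference of 1.23 ± 0.42 SE was not called (adjusted p = 0.0962 in edgeR's test) except with range B as a covariate (1.43, adjusted p = 0.0209). Plxna3 had 121, 155 and 111 CPM in 14-day replicates 1 to 3, from 74.7 to 200.4 CPM with a median of 100.2 CPM at 6 days, and 35.5, 63.8, 59.1 and 120.1 CPM in controls 1 to 4. Only control 4 overlapped the vismodegib groups. The log2 difference of Plxna3 was 0.89 at 14 days and 0.76 at 6 days against control, not called (adjusted p = 0.179 and 0.323), and 1.24 and 0.67 with range B as a covariate, both called (adjusted p = 0.00169 and 0.0383). Plxna1 was between 112 and 424.5 CPM, highest in control 4, and was not called; an antisense gene overlaps 10.7% of its exonic bases. Plxna4 had at most 18.8 CPM, Plxnc1, the receptor of SEMA7A, 1.01 to 17.3 CPM, and Plxnd1 0.356 to 9.09 CPM.

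Sema4a, a membrane ligand best known in immune cells, had 216, 313 and 243 CPM in 14-day replicates 1 to 3, from 152 to 272 CPM with a median of 230.5 CPM at 6 days, and 169.8, 299, 208 and 186.7 CPM in controls 1 to 4. Its log2 difference was 0.25 ± 0.23 SE at 14 days against control (adjusted p = 0.561 in edgeR's test), and the groups overlapped. Sema5a, which carries thrombospondin repeats, lay between 118 and 340.4 CPM and Sema6a, a transmembrane ligand of class A plexins, between 30.1 and 117 CPM, neither called.

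Several membrane ligands were highest in range B libraries. Sema4g had 6.58 to 10.1 CPM at 14 days, 8.02 to 18.4 CPM in range A and 154 to 216 CPM in range B at 6 days, and 9.03 to 22.0 CPM in range A and 185.5 CPM in range B among controls. Sema4b had 54.6, 33.8 and 33.0 CPM in 14-day replicates 1 to 3, from 21.6 to 102 CPM with a median of 32.2 CPM at 6 days, and 23.2, 18.2, 16.9 and 127 CPM in controls 1 to 4. All 4 libraries above 90 CPM were in range B. Sema4b was at log2 -0.20 at 14 days against control (adjusted p = 0.909 in edgeR's test), at 1.05 without control 4, and at 0.89 with range B as a covariate (adjusted p = 0.0228), so its sign turned. Sema4c had 82.9, 50.4 and 56.0 CPM in 14-day replicates 1 to 3, from 30.2 to 97.9 CPM with a median of 51.2 CPM at 6 days, and 36.3, 29.2, 27.7 and 61.4 CPM in controls 1 to 4. The 3 groups overlapped, 14 days and control through control 4. Sema4c was not called (log2 0.71 at 14 days against control, adjusted p = 0.288) but was with the covariate (1.02, adjusted p = 0.00529); 7.27% of its exonic bases are shared with a gene on the other strand. Sema7a, a ligand held by a lipid anchor, had at most 0.0757 CPM at 14 days, up to 6.91 CPM in range B and 0 in range A at 6 days, and 7.18 CPM in control 4 against at most 0.505 CPM in the other controls. In a test of whether the 6-day effect differed between ranges A and B, no member was called (smallest adjusted p 0.295 in edgeR's test, for Plxna1), and range B has 1 control.

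**Figure D4:**
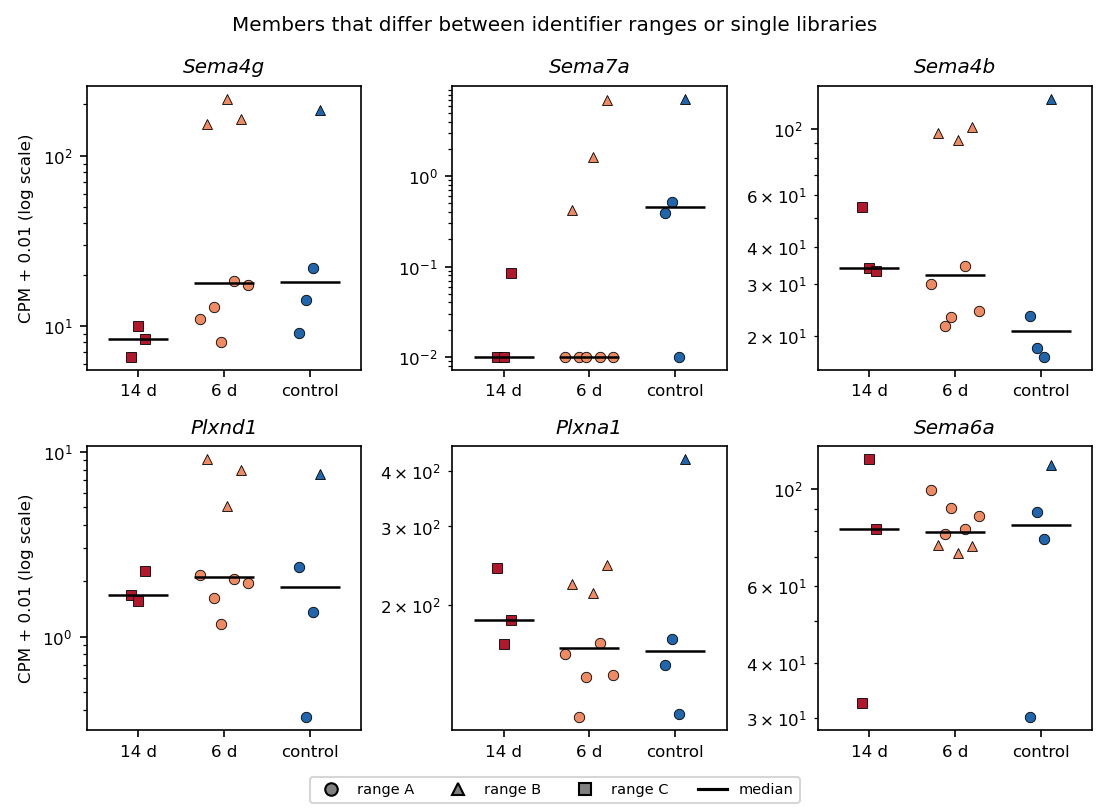
Level in CPM plus 0.01 on a log axis in each library for Sema4g, Sema7a, Sema4b, Plxnd1, Plxna1 and Sema6a, with 14 days left, 6 days in the middle and controls right, and the group median as a line. For Sema4g, Sema4b and Plxnd1 the 4 range B libraries (triangles) are the highest. For Sema6a, 14-day replicate 1 and control 1 are the lowest.

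The class 6 ligands Sema6a, Sema6c and Sema6d were lowest in the same 2 libraries. Their class summed to 45.0 CPM in 14-day replicate 1 against 160.0 and 110.0 CPM in replicates 2 and 3, to 119 to 149 CPM in the 8 6-day libraries, and to 48.1 CPM in control 1 against 129, 115.5 and 187 CPM in controls 2 to 4. The groups therefore overlapped, and no class 6 member was called. Sema6b, the fourth gene of the class, reached at most 0.933 CPM. Sema4d, the ligand of plexin B1, was highest in the same 2 libraries, at 19.5 CPM in 14-day replicate 1 and 9.54 CPM in control 1, and at most 8.97 CPM elsewhere.

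Of 51 partner genes (co-receptor kinases, VEGF ligands, other semaphorin receptors, proteases and effectors), 47 were tested. At 14 days against control 3 rose and 3 fell (12.8% of the 47, beside 6.6% of all genes), at 6 days 1 rose and 1 fell (4.26%, beside 1.26%), and at 14 against 6 days 2 were higher and 2 lower (8.51%, beside 3.89%). The median log2 fold change of the 47 was -0.16, -0.11 and 0.01 in these comparisons, beside -0.02, 0.03 and -0.06 over all tested genes. The plexin B co-receptor kinases Mst1r and Erbb2 were among the genes that rose at 14 days against control. Mst1r averaged 118 ± 56.4 CPM at 14 days, 75.2 ± 16.3 CPM at 6 days and 28.3 ± 13.8 CPM in controls (SD, n = 3, 8 and 4), with a log2 difference of 2.05 ± 0.37 SE at 14 days (adjusted p = 0.00647 in edgeR's test) and 1.41 ± 0.32 SE at 6 days (adjusted p = 0.0414) against control. The 14-day call held in all 15 omissions, and the 6-day call in 3. Erbb2 averaged 463 ± 115 CPM at 14 days, 279 ± 23.3 CPM at 6 days and 258 ± 37.9 CPM in controls, and was higher at 14 days than in control (log2 0.84, adjusted p = 0.0126) and than at 6 days (0.73, adjusted p = 0.0219). Both Erbb2 calls were lost without 14-day replicate 1, the first also without control 3 (adjusted p up to 0.0771) and the second also without 14-day replicate 3 (up to 0.250). Met was higher at 14 than at 6 days (log2 1.27, adjusted p = 0.0410), in 6 of 15 omissions, with 110.0 ± 42.2 CPM at 14 days, 45.5 ± 20.0 CPM at 6 days and 55.1 ± 12.0 CPM in controls. Against control Met was not called at 14 or 6 days.

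Among the partners that fell was Mmp14, a membrane protease known to release SEMA4D from the cell surface, with 113 ± 41.8 CPM at 14 days, 129 ± 24.6 CPM at 6 days and 266 ± 36.4 CPM in controls (SD, n = 3, 8 and 4). Its log2 difference against control was -1.24 ± 0.25 SE at 14 days (adjusted p = 0.0106 in edgeR's test; lost without 14-day replicate 2 or 3, adjusted p up to 0.0550) and -1.04 ± 0.19 SE at 6 days (adjusted p = 0.0164; lost without control 2, 0.0686). Cd72, a receptor of SEMA4D in B cells, and Cfl1, the actin-severing protein cofilin, fell at 14 days against control (log2 -1.56 and -1.48, adjusted p = 0.00469 and 0.00918, both kept in all 15 omissions). Both were also lower at 14 than at 6 days (log2 -1.29 and -1.28), calls lost for Cd72 without 14-day replicate 1 or 3 and for Cfl1 without any 1 of the 14-day libraries (adjusted p up to 0.154 for each). The opposite-strand genes Tesk1 and Snx32 overlap 41.6% of the exonic bases of Cd72 and 16.5% of those of Cfl1, and the labels do not say whether counting used strand. Limk2, the kinase that inactivates cofilin, rose at 14 days against control (log2 0.59, adjusted p = 0.0351) and kept the call in 9 of 15 omissions, losing it without control 1, 2 or 3 or any 1 of the 14-day libraries.

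Promoter windows (250 bases before to 50 after the start, RefSeq, GRCm38.p6) were matched for 26 members, in 37 windows. They were searched on both strands for CCACCCA (a GLI core), CTTTGA (LEF/TCF), GGAATG (TEAD) and CACGTG (E-box), none of which contains another. CCACCCA was in 6 of 37 windows, beside 9.3% of 32851 promoters, CTTTGA in 3 (16.0%), GGAATG in 3 (14.66%) and CACGTG in 3 (7.15%). Among called members, Sema3c had CCACCCA 221 bases before the start, Nrp2 had CTTTGA 146 bases before it, and Sema3d, Nrp1 and Plxnb2 had none of the 4. The promoters of Sema3b and Sema3f were not analysed here.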

How the data were processed

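Expression was measured by polyA RNA-seq in 15 libraries, 1 file each. Unique reads per gene are the deposited counts, per the file headers, and the deposited RPKM values are these counts divided by gene length and a library size factor. Per the submitters' processing notes, reads were aligned with GSNAP to GRCm38. Their versions, the annotation and the strand handling were not given in the sources used here. The authors' counts went into edgeR 4.0.16 (R 4.3.3) with TMM factors, filterByExpr and the quasi-likelihood F test, all 15 libraries in 3 groups sharing a single fit, leaving 18751 genes and 12 residual degrees of freedom, with Benjamini-Hochberg adjustment over all of them. A call means an adjusted p under 0.05, and edgeR's common biological coefficient of variation was 0.579. CPM levels carry the TMM scaling, and RPKM values served only to compare genes. Groups are from the treatment label, and replicate numbers follow accession order. Names came from a RefSeq table of GRCm38, matching 31049 of 36528 identifiers.

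The members, the gene lists, the motifs and the tests were chosen with earlier results of these data known. Values by library (for the 8 libraries at 6 days, the lowest, median and highest) are given for members called with or without range B as a covariate and for the 2 ligands, plexins and neuropilins of highest control RPKM, 14 members in all. Exonic overlaps were taken from an annotation of the same build. Alternatives were RLE factors, no filter, CPM of at least 1 in at least 3 libraries, DESeq2 1.42.0, limma-voom with sample weights (limma 3.58.1), the 2 groups compared alone, the identifier ranges (as a covariate, as a split, or without range B), and leaving out each library in turn. The main fit was tested on simulated counts without a range effect, for the comparisons with control only. The alternatives and the comparison of 14 with 6 days were not simulated. 1 transcript of the Hedgehog check is not reported here. Python 3.11.15 with numpy 2.4.6, pandas 2.3.3 and matplotlib 3.10.9 was used for tables and figures.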

Additional observations from a re-analysis of the deposited data

Results flagged for a closer look

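Of 28 groups of 4 to 8 libraries examined among the named members, 4 had 1 library far from the others in CPM. The cut-offs used flag about 1 in 20 groups if values are normally distributed. CPM values need not be, and the groups share libraries and come mostly from called members. The count of 4 therefore cannot be set against that rate. The flagged libraries were 6-day replicate 7 for Sema3b (9.70 CPM) and for Nrp2 (192.5 CPM), control 2 for Sema3b (49.6 CPM) and control 4 for Sema4b (127 CPM). Both 6-day values are from range B, as is control 4.

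The effect against control differed between 14 and 6 days in edgeR's test of that difference for 4 members: Sema3d (log2 2.53, adjusted p = 0.0144), Sema3c (1.11, 0.0357), Plxnb2 (0.82, 0.0374) and Sema3f (1.60, 0.0449). All 14-day libraries are in range C, so the time and the range cannot be told apart.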

How the results depend on the processing

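Members called at 14 days against control, 5 as reported, numbered 8 with DESeq2, 13 with limma-voom, 13 with range B as a covariate, 10 without all range B libraries and 2 when only these groups were fitted, and 1 to 6 with 1 library left out. At 6 days against control, 3 became 0 within range B only (1 control) and 1 to 3 with 1 library left out. At 14 against 6 days, 4 became 7 with DESeq2 and 8 with limma-voom, and 0 to 5 with 1 library left out. Log2 values of Sema4b reversed: at 14 days against control to 0.89 with range B as a covariate and 1.04 without range B, and at 14 against 6 days to 0.70 with the covariate. The cause was not tested.

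Over all genes, 1238 calls at 14 days against control became 2752 (DESeq2), 4205 (limma-voom), 3196 (covariate), 2330 (without range B), 374 (these groups only) and 376 to 1438 (1 library left out). At 6 days 236 became 846, 826, 866 and 465 in the first 4 of these, 468 within range A and 69 to 308 with 1 library left out. At 14 against 6 days 730 became 2609, 4693, 2036 and 1322, 460 with no filter and 3 to 1138. Partners called at 14 days, 6 as reported, were 15 with limma-voom, 13 with the covariate, 11 without range B and 1 with these groups only. At 6 days 2 became 5, 5 and 1 in the first 3, and 0 to 3 with 1 library left out. At 14 against 6 days 4 became 7 with DESeq2, limma-voom and the covariate, and 0 to 4 with 1 library left out.

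Of the single-member values recomputed, 425 stayed on the same side of the threshold, 60 fell short of it and 26 newly passed. A further 3 changed sign with a call in either fit. Sign changes without a call in either fit, such as Sema4b at 14 days against control without control 4, are among the 425. No paired analysis was possible because replicate numbers were given in accession order only. Precision was limited by 3 libraries at 14 days and, for members under a few CPM, by depth.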
